A study of Homo sapiens with 24 samples.

Results

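The 38 genes described here make up the ATF4 amino acid response and the unfolded protein response of the endoplasmic reticulum (ER). They were taken by symbol from a fixed list and are 38 of the 60675 genes in the count tables. The rule for taking them uses no measured value, but the list was chosen with earlier results of these data known. RNA-seq libraries came from ACHN, a human renal cancer line whose label gives clear cell renal cell carcinoma as the disease, and from HK-2, a line of human proximal tubule epithelium. In each line the shNC group carried a control hairpin, the shKDM5C group a hairpin against KDM5C, a demethylase of histone H3 lysine 4, and the shYY1 group a hairpin against YY1, a zinc finger transcription factor. The double knockdown group (labelled Dsh) was made by infecting YY1-depleted cells with a GFP-marked KDM5C hairpin plasmid. Each of the 8 groups had 3 libraries, all from stably infected cells selected with puromycin. The double knockdown cells were also screened for green fluorescence and had been infected a second time, and this cannot be told apart from the loss of both proteins. The sources used here do not say which KDM5C or YY1 hairpin was sequenced or whether the 3 libraries of a group came from separate cultures. Every p-value below therefore measures the spread between these libraries, which may be technical.

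When amino acids run short, when unfolded proteins collect in the ER or when other stresses act, kinases phosphorylate the initiation factor eIF2alpha, general translation falls and the mRNA of the transcription factor ATF4 is translated better. ATF4, with CEBP family partners, then switches on genes that make, import and load amino acids, along with feedback genes such as TRIB3, CHAC1 and PPP1R15A. The unfolded protein response reaches the same point through the ER kinase PERK (EIF2AK3), and has a pair of further branches, IRE1 (ERN1), which splices the mRNA of XBP1, and ATF6, which is cut and released to the nucleus. These branches raise ER chaperones and the machinery that removes misfolded proteins. ATF4 activity is set largely by translation and XBP1 activity by splicing, neither of which a gene count measures, so the values below are mRNA levels only.

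The DNA letters through which the factors of each arm are known to act are shown first, because the members fall into these arms. The RefSeq promoter table (GRCh38.p14, 250 bases before to 50 after each start) held 35 of the 38 members, and NUPR1, PSPH and SHMT2 had no entry. On either strand, the CEBP-ATF response element (CARE, searched as TGATGNAA) was found in 9 of the 35, namely AARS1, ASNS, ATF3, CEBPG, CHAC1, GARS1, HERPUD1, SLC3A2 and SLC7A1, and in 4.46% of all 27305 genes of the table. A gene counts here if any of its promoters holds the letters, and the 35 members have 51 promoters. The ER stress element (ERSE, CCAAT and CCACG 9 bases apart) was found in CALR, CRELD2, HSP90B1, HSPA5 and XBP1, against 0.0916% of all genes, and the related ERSE-II (ATTGG and CCACG 1 base apart) in HERPUD1 and SDF2L1, against 0.0696%. The unfolded protein response element TGACGTGG, which 0.927% of genes hold, and a YY1 element searched as AAGATGGCG, which 2.14% hold, were found in no member's window. Below, 4 promoter stretches with a CARE and 3 with an ERSE or ERSE-II are printed 5′ to 3′ on the gene's strand, with the matching letters in capitals. The letters are a description of these windows and not evidence of a bound factor.
ASNS, chr7:97872459-97872486, minus strand: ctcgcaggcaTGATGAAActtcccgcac
CHAC1, chr15:40953252-40953279, plus strand: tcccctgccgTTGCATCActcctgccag
CEBPG, chr19:33374061-33374088, plus strand: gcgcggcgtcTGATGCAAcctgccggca
AARS1, chr16:70289676-70289703, minus strand: tttctcgcagTTGCATCAgccaagttag
HSPA5, chr9:125241381-125241419, minus strand: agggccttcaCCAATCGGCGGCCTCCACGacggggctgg
XBP1, chr22:28800593-28800631, minus strand: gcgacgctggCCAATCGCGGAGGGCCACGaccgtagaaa
HERPUD1, chr16:56932015-56932045, plus strand: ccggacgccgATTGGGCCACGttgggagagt

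The libraries held 15926561 to 24272298 reads assigned to genes. KDM5C fell in the 4 groups with a KDM5C hairpin, by 0.73 (ACHN shKDM5C), 0.80 (ACHN double), 1.74 (HK-2 shKDM5C, all 3 libraries) and 1.49 (HK-2 double) on the log2 scale. YY1 fell by 0.88 in ACHN shYY1, 1.70 in HK-2 shYY1 and 1.49 in the HK-2 double knockdown, but by 0.51 in the ACHN double knockdown, so the fitted falls of both targets were smaller in ACHN than in HK-2. A single library stood apart. In HK-2 shKDM5C replicate 1 the mitochondrial genome took 11.8% of counts, against 4.75% to 5.52% in the other 11 HK-2 libraries, and the 38 members took 0.475% against 0.628% or more. Counts of members called in comparisons that use it are given with and without it. The 5 kidney epithelial markers reported (PAX2, PAX8, KRT8, KRT18, KRT19) were detected in every group. Their summed level was 2816 to 2868 CPM (counts scaled to the same library total) in ACHN shNC, 1879 to 2106 in the ACHN double knockdown, 2698 to 2804 in HK-2 shNC and 1319.8 to 1454 in the HK-2 double knockdown. It was thus lower in both double knockdowns, with KRT8 at -1.005 in ACHN and -1.17 in HK-2 on the log2 scale (both called). PAX2 fell most in both (-2.40 and -2.41), but PAX8 was higher in both (0.40 and 0.27, all called). The sum was also lower after shYY1 in HK-2 (1829 to 1953), although KRT19 rose there (0.39), and higher in the ACHN single knockdowns (3313 to 3436). After shKDM5C in ACHN, KRT8 (0.47) and KRT19 (0.32) rose while PAX2 (-1.64), PAX8 (-0.50) and KRT18 (-0.11) fell, all called. After shYY1 in ACHN, PAX8 fell (-0.15) and the other markers of this set rose. The part of this in the results below was not tested. Leukocyte and endothelial markers summed to at most 7.57 and 1.75 CPM in any library. Of the 4 fibroblast markers (COL1A1, COL1A2, PDGFRB, DCN), COL1A2 was at 0 in 5 groups. Their sum in ACHN was 575 to 625 CPM in shNC, 72.7 to 76.9 after shKDM5C, 186 to 193 after shYY1 and 134 to 150 in the double knockdown. In HK-2 the sum was 31.1 to 34.2 in shNC, 16.1 to 25.4 after shKDM5C, 25.5 to 28.5 after shYY1 and 35.7 to 37.8 in the double knockdown. Within the last, mean DCN rose from 0.147 CPM in shNC to 7.31 (log2 fold change 5.59, called). The part of this in the results was not tested either.

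The median change of the members had opposite signs in the double knockdowns of the cell lines. In ACHN, 22 of the 38 fell and 9 rose against shNC, and 7 did not pass the test (edgeR quasi-likelihood test, adjusted p under 0.05), with a median log2 fold change of -0.29. In HK-2, 33 rose, 2 fell and 3 did not pass, with a median of 0.66. Over all genes tested the medians were -0.00573 and -0.00265, and 32.0% of 16454 genes were called lower in ACHN while 25.5% of 16217 were called higher in HK-2 (62.6% and 49.8% in either direction). The 38 genes together took 0.892% to 0.894% of counts in ACHN shNC and 0.614% to 0.621% in the ACHN double knockdown, but 0.628% to 0.642% in HK-2 shNC and 0.889% to 0.911% in the HK-2 double knockdown. Fewer cells with a high level and less RNA in every cell cannot be told apart in bulk samples. Under the fold threshold that the study used, a log2 fold change of at least 1.5 in size, 3 members were called in ACHN (CEBPB higher, SLC7A5 and PHGDH lower; 8.42% of all genes) and 5 in HK-2 (NUPR1, CHAC1, DDIT3, TRIB3 and ASNS, all higher; 4.3% of all genes). The study paired this threshold with a P value under 0.05 from DESeq2, and here it was paired with edgeR's adjusted p.

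Set side by side, 19 members fell in ACHN and rose in HK-2, and they hold 5 of the 6 synthesis enzymes and all of the transporters and tRNA synthetases. A further 8 rose in both lines, namely the sensors EIF2AK3, ERN1 and ATF6, the transcription factor CEBPB, the ER co-chaperones DNAJB9 and DNAJC3, and the degradation genes SEL1L and EDEM1. HERPUD1 fell in both, and ATF5 rose in ACHN and fell in HK-2. The share of all genes with each pair of directions was not computed. Taken by line, 32.0% of all genes were called lower and 30.7% higher in ACHN, and 24.3% lower and 25.5% higher in HK-2. The test of the difference itself, the double knockdown effect in ACHN minus that in HK-2, was below 0 for 31 members and above 0 for 2 (ATF5 and CEBPB), with a median difference of -0.89, against 22.7% and 23.3% of 18087 genes. The other 5 (DNAJB9, DNAJC3, CRELD2, HERPUD1 and SEL1L) did not pass. EIF2AK3, ERN1 and ATF6 are among the 31, since they rose in both lines and by more in HK-2, and EIF2AK3 and ATF6 were close to the threshold (adjusted p = 0.0458 and 0.0226).

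**Figure D1:**
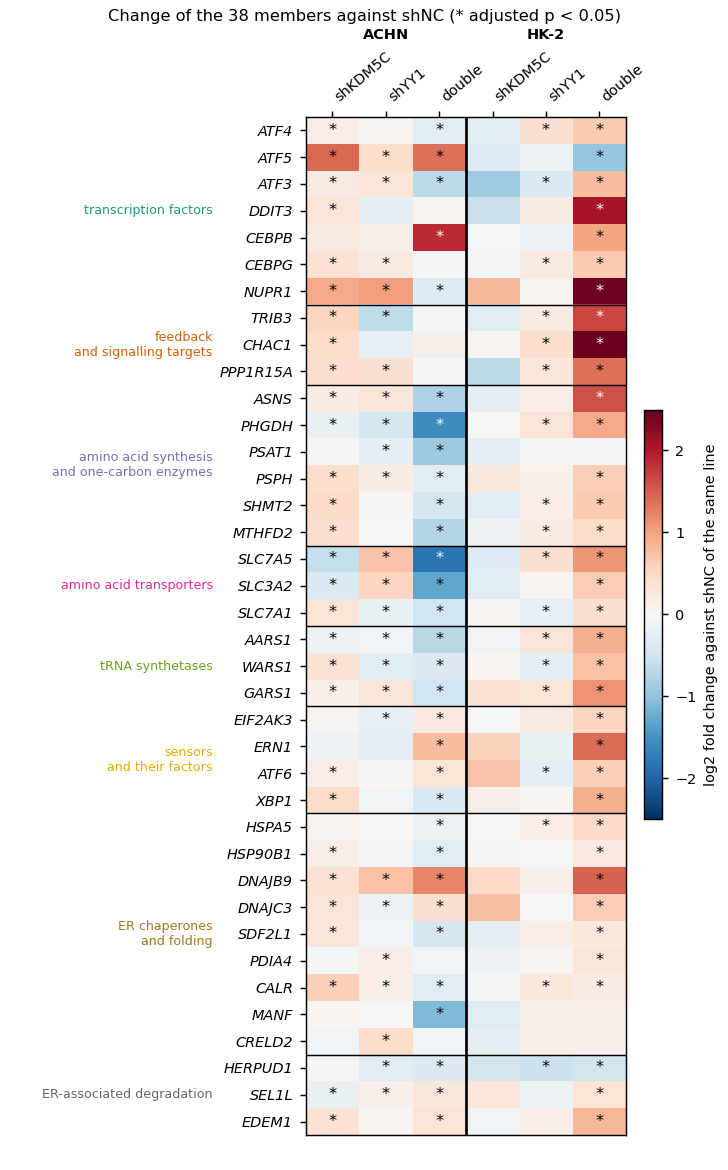
Log2 fold change of each member against shNC of the same line (colour, with shared limits of 2.5 in either direction), rows ordered by role and columns by cell line and knockdown, with an asterisk where edgeR's adjusted p is under 0.05. The ACHN double knockdown column holds 22 members called lower, and the HK-2 double knockdown column 33 called higher.

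**Figure D2:**
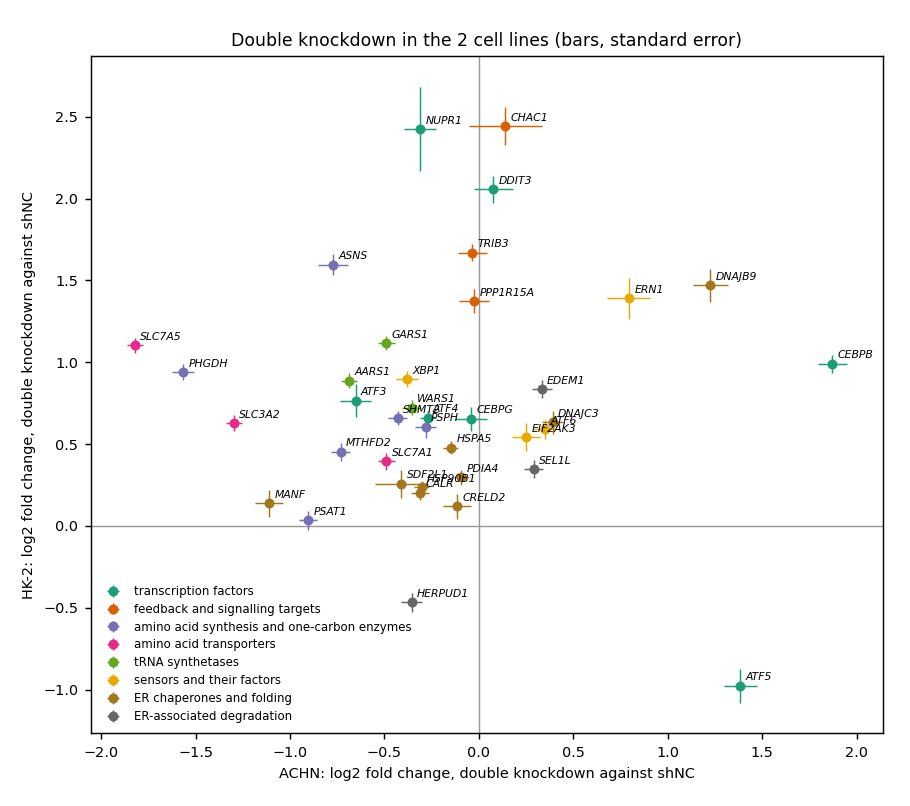
Each point is a member, placed by its log2 fold change (double knockdown against shNC) in ACHN (horizontal) and HK-2 (vertical), bars for the standard error and colours for the role. The upper left holds the 19 members called lower in ACHN and higher in HK-2, along with members called in 1 line or neither, and ATF5 lies alone in the lower right.

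Among the 7 transcription factors, ATF4 itself followed the split. ATF4 was at 297, 299.9 and 292 CPM (scaled within each line by TMM) in the ACHN shNC libraries, 333, 342 and 329 after shKDM5C, 309.9, 303 and 317 after shYY1 and 252, 238 and 248 in the double knockdown. In HK-2 the values were 282, 282 and 299 in shNC, 150.4, 289 and 277 after shKDM5C, 389, 367 and 388 after shYY1 and 465, 442 and 452 in the double knockdown. The double knockdown libraries thus lay below all others in ACHN (log2 fold change -0.27 ± 0.04, adjusted p = 1.93e-05; ± is the standard error throughout) and above all others in HK-2 (log2 fold change 0.66 ± 0.04, adjusted p = 2.27e-14), and the effects differed by -0.91 ± 0.06 (adjusted p = 2.36e-13). Before knockdown ATF4 was slightly higher in ACHN, with an ACHN shNC minus HK-2 shNC difference of 0.08 ± 0.03 (adjusted p = 0.0345), although the libraries overlapped.

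DDIT3 encodes CHOP, the factor linked to cell death under prolonged ER stress. Its level in the double knockdown was 61, 57.8 and 56.6 CPM in HK-2, against 14.7, 12.9 and 14.6 in shNC, 4.64, 12.5 and 11.6 after shKDM5C and 16.2, 15.3 and 17.04 after shYY1 (log2 fold change 2.06 ± 0.08, adjusted p = 3.72e-19 for the double knockdown). In ACHN it was 12.8, 11.2 and 11.8 in the double knockdown and 10.6, 11.8 and 11.4 in shNC, and these libraries overlapped (log2 fold change 0.08 ± 0.10, adjusted p = 0.542). After shKDM5C alone ACHN held 13.1, 15.3 and 13.99 and after shYY1 alone 9.36, 9.23 and 10.7. The HK-2 double knockdown libraries thus lay above all other libraries of that line, and the ACHN shKDM5C libraries above all others of ACHN, by a smaller change (log2 fold change 0.31 ± 0.09, adjusted p = 0.00626). DDIT3 exons overlap those of MARS1 on the opposite strand, and the counting is not stated to use strand, so reads of the overlap cannot be assigned with certainty. MARS1 had log2 fold changes of 0.55 in HK-2 and -0.16 in ACHN in the same comparisons.

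NUPR1, a small stress-induced chromatin protein, started from very different levels. It was at 64.1, 71.3 and 67.8 CPM in ACHN shNC and 1.17, 1.12 and 1.3 in HK-2 shNC (log2 fold change 5.85 ± 0.11, adjusted p = 3.05e-26), close to the limit of detection in the latter. In ACHN it rose to 126, 142 and 124 after shKDM5C and 141, 142 and 144 after shYY1, but was at 58.6, 44.6 and 60.2 when both were lowered, below shNC (log2 fold change -0.31 ± 0.08, adjusted p = 0.00298). The HK-2 level was 5.42, 8.37 and 5.51 in the double knockdown (log2 fold change 2.42 ± 0.26, adjusted p = 2.34e-09), 1.55, 0.904 and 1.34 after shYY1 and 0.429, 3.22 and 2.69 after shKDM5C, the lowest of these in the library that stood apart.

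CEBPB, a dimer partner of ATF4, was the transcription factor with the largest rise in the ACHN double knockdown, to 67.8, 72.5 and 67.2 CPM from 17.5, 21.5 and 17.5 in shNC (log2 fold change 1.87 ± 0.08, adjusted p = 2.32e-13). The single knockdowns of ACHN, at 27.1, 16.1 and 23.2 and 21.9, 17.3 and 23.6, overlapped shNC. In HK-2 it stood at 139, 145 and 136 in the double knockdown and 66.4, 75.3 and 70.4 in shNC (log2 fold change 0.99 ± 0.06, adjusted p = 1.2e-15), with 30.6, 89.6 and 93.7 after shKDM5C and 58.6, 64.96 and 67.4 after shYY1. It rose in both lines, and by more in ACHN (difference 0.90 ± 0.10, adjusted p = 6.68e-09).

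ATF5, a stress factor of the same family that is also linked to mitochondrial stress, was the member that moved against the others. ACHN held 17.8, 16.5 and 21.5 CPM in shNC, 52.3, 48.7 and 50.5 after shKDM5C (log2 fold change 1.43 ± 0.07, adjusted p = 9.57e-15), 26.3, 25.98 and 24.8 after shYY1 and 47.4, 46.96 and 51.7 in the double knockdown (log2 fold change 1.39 ± 0.09, adjusted p = 7.64e-11). HK-2 held 27.6, 27.8 and 27.8 in shNC, 15.6, 24.99 and 25.5 after shKDM5C, 25.8, 27.8 and 21.7 after shYY1 and 15.1, 15.03 and 12 in the double knockdown (log2 fold change -0.98 ± 0.10, adjusted p = 2.9e-09). The ACHN shKDM5C and double knockdown libraries were thus the highest of that line and the HK-2 double knockdown libraries the lowest of that line, a difference of 2.38 ± 0.13 (adjusted p = 1.23e-14). ATF5 exons overlap NUP62 and IL4I1 on the opposite strand. The other factors were ATF3, an early stress factor, and CEBPG, another dimer partner of ATF4. ATF3 had a log2 fold change of -0.65 in the ACHN and 0.77 in the HK-2 double knockdown, both called, and CEBPG -0.04 (not called) and 0.65 (called).

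**Figure D3:**
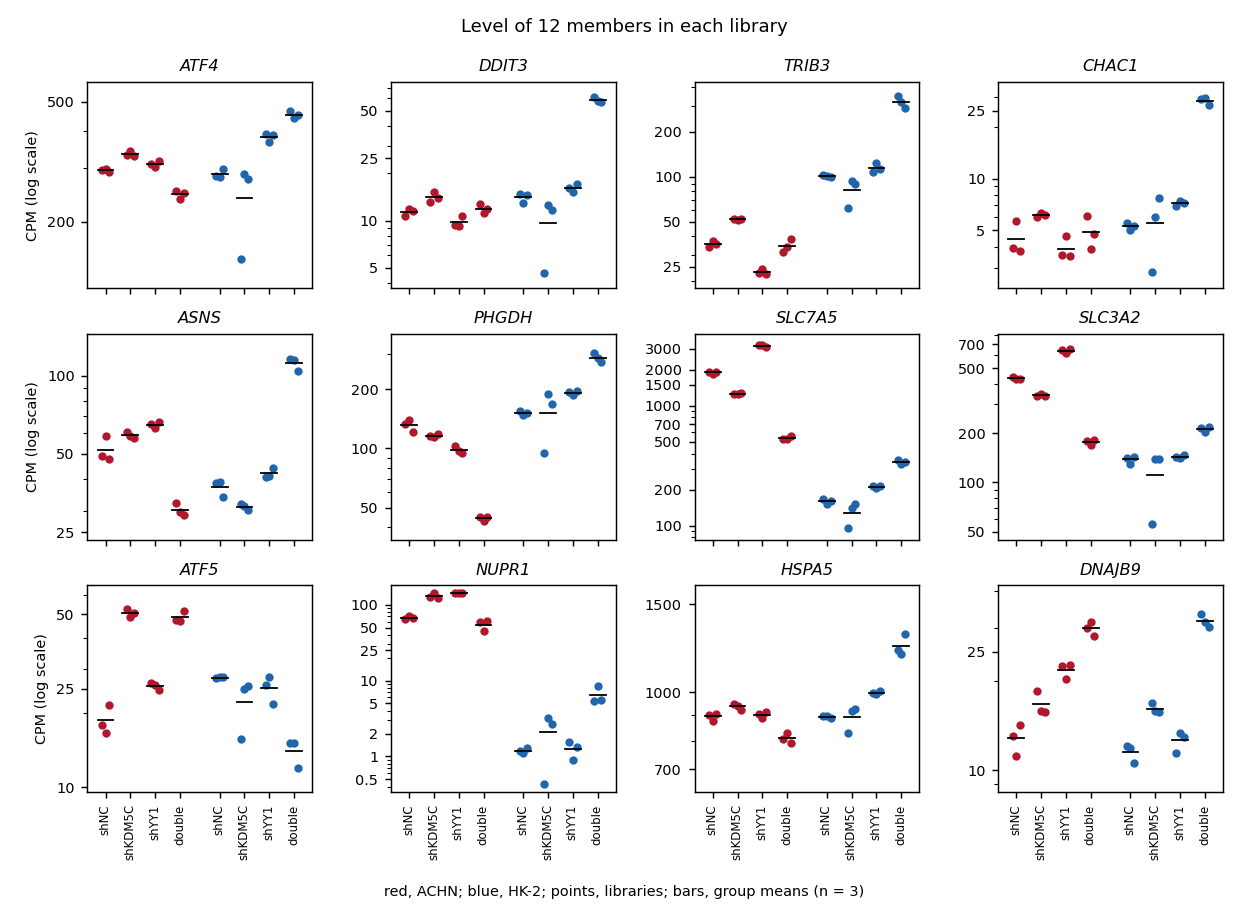
Level of 12 members in CPM on a log scale in every library (points; red ACHN, blue HK-2) with the mean of each group of 3 as a bar. For SLC7A5 and PHGDH the ACHN double knockdown libraries lie below all other ACHN libraries, while for DDIT3, TRIB3, CHAC1 and ASNS the HK-2 double knockdown libraries lie above all other HK-2 libraries.

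The 3 feedback and signalling targets rose together in the HK-2 double knockdown and none passed the test in the ACHN double knockdown. TRIB3, a pseudokinase that binds and restrains ATF4, was at 102, 101 and 99.03 CPM in HK-2 shNC, 61.5, 93.5 and 89.95 after shKDM5C, 108, 125 and 112 after shYY1 and 346, 318 and 291 in the double knockdown (log2 fold change 1.67 ± 0.05, adjusted p = 1.53e-21). In ACHN it was at 33.6, 37.01 and 35.7 in shNC, higher after shKDM5C at 52.4, 51.4 and 52.2 (log2 fold change 0.55 ± 0.05, adjusted p = 3.28e-09), lower after shYY1 at 22.8, 24.2 and 22.4 (log2 fold change -0.63 ± 0.06, adjusted p = 1.29e-10) and at 31.5, 33.9 and 38.3 in the double knockdown. The ACHN single changes were thus opposite in sign, and the double knockdown libraries overlapped shNC.

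CHAC1, which degrades glutathione, was low in most groups and rose from 5.51, 4.98 and 5.32 CPM in HK-2 shNC to 29.3, 29.4 and 26.99 in the double knockdown (log2 fold change 2.44 ± 0.12, adjusted p = 3.49e-17). HK-2 shKDM5C held 2.86, 5.96 and 7.67 and shYY1 6.92, 7.35 and 7.21, so no single knockdown library came near the double knockdown. In ACHN it was at 3.91, 5.62 and 3.78 in shNC, 5.96, 6.29 and 6.11 after shKDM5C (log2 fold change 0.46 ± 0.16, adjusted p = 0.0148, with no overlap), 3.56, 4.61 and 3.51 after shYY1 and 6.07, 3.87 and 4.72 in the double knockdown (log2 fold change 0.14 ± 0.19, adjusted p = 0.552). PPP1R15A encodes GADD34, which brings a phosphatase to eIF2alpha and so ends the response. It was at 33.2, 30.2 and 32.5 CPM in HK-2 shNC, 8.57, 28.05 and 23.5 after shKDM5C, 39.6, 38.2 and 40.5 after shYY1 and 87, 71.8 and 88.4 in the double knockdown (log2 fold change 1.37 ± 0.07, adjusted p = 5.24e-16). In ACHN both single knockdowns raised it, to 41.2, 44.5 and 41.2 and 40.4, 42.3 and 43.8 from 29.9, 34.4 and 30.1, whereas the double knockdown, at 29.98, 28.9 and 33.8, overlapped shNC.

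All 6 enzymes of amino acid synthesis and one-carbon metabolism fell in the ACHN double knockdown (median log2 fold change -0.75), and 5 of the 6 rose in that of HK-2 (median 0.63). ASNS, which makes asparagine, was at 49.02, 58.5 and 47.96 CPM in ACHN shNC, 60.5, 58.6 and 57.6 after shKDM5C, 65.2, 62.9 and 66.3 after shYY1 and 32.3, 29.9 and 29.1 in the double knockdown (log2 fold change -0.77 ± 0.08, adjusted p = 6.96e-08). In HK-2 it was at 38.7, 39.1 and 34.2, 32.1, 31.4 and 30.3, 40.9, 41.2 and 44.2 and 116, 116 and 105 in the same order of groups (log2 fold change 1.60 ± 0.07, adjusted p = 5.8e-19 for the double knockdown). In each line the double knockdown libraries lay outside all the others, on opposite sides, and the effects differed by -2.35 ± 0.11 (adjusted p = 6.62e-17).

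PHGDH, the first enzyme of serine synthesis, fell in all 3 ACHN knockdowns, from 132, 139.5 and 121 CPM in shNC to 115, 114 and 118 after shKDM5C, 103, 97.4 and 95.2 after shYY1 and 45.1, 42.98 and 44.8 in the double knockdown (log2 fold change -1.56 ± 0.06, adjusted p = 5.05e-14). In HK-2 it went from 155, 147 and 152 in shNC to 193, 186 and 196 after shYY1 and 306, 286 and 275 in the double knockdown (log2 fold change 0.94 ± 0.05, adjusted p = 8.36e-17), with 94.9, 188 and 168 after shKDM5C. The second enzyme, PSAT1, shared the fall but not the rise. It was at 279, 294 and 283, 278, 279.7 and 275, 253, 248 and 235 and 158, 154 and 146 CPM in the ACHN shNC, shKDM5C, shYY1 and double knockdown libraries (log2 fold change -0.90 ± 0.05, adjusted p = 4.71e-12), and at 87.1, 99.6 and 103, 84.5, 82.8 and 80.4, 94.7, 96.95 and 104 and 98.8, 98.4 and 97.6 in those of HK-2 (log2 fold change 0.03 ± 0.06, adjusted p = 0.664). The third enzyme, PSPH, and the mitochondrial one-carbon enzymes SHMT2 and MTHFD2 fell by 0.28, 0.43 and 0.73 in the ACHN double knockdown, and had log2 fold changes of 0.61, 0.66 and 0.45 in that of HK-2, all called. After shKDM5C alone these 3 rose in ACHN, with log2 fold changes of 0.44, 0.48 and 0.42.

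Among the 8 role groups, the amino acid transporters had the lowest median of the line difference (-1.90). SLC7A5 (LAT1), which exchanges large neutral amino acids, and its heavy chain partner SLC3A2 (CD98) had the same order of groups in ACHN. SLC7A5 was at 3196, 3184 and 3105 CPM after shYY1, 1919, 1857 and 1930.5 in shNC, 1262, 1262 and 1272 after shKDM5C and 525, 533 and 557 in the double knockdown, and the groups did not overlap. SLC3A2 was at 647, 619 and 650.2, 441, 431 and 432, 339, 349 and 336 and 179, 169.5 and 182 in that order, again without overlap. Relative to shNC, SLC7A5 changed by 0.71 ± 0.02 after shYY1, -0.60 ± 0.03 after shKDM5C and -1.82 ± 0.04 in the double knockdown (adjusted p = 1.76e-23, 2.73e-16 and 4.09e-17). SLC3A2 changed by 0.54 ± 0.03, -0.36 ± 0.03 and -1.30 ± 0.04. Both genes thus fell in the double knockdown although the YY1 hairpin alone raised them.

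HK-2 had far less SLC7A5 at the start, with 167, 153 and 160.4 CPM in shNC, and the order differed, with 95.3, 139.9 and 151 after shKDM5C, 213, 205 and 215 after shYY1 and 357, 330.4 and 341 in the double knockdown (log2 fold change 1.10 ± 0.05, adjusted p = 8.01e-19). The ACHN shNC level was 3.61 ± 0.04 higher on the log2 scale than that of HK-2, and in the double knockdowns the levels were 539 ± 16.7 CPM in ACHN and 343 ± 13.3 in HK-2 (mean ± SD, n = 3). SLC3A2 in HK-2 was at 142, 129.8 and 143 in shNC, 55.5, 138 and 139.5 after shKDM5C, 142, 141 and 148 after shYY1 and 215, 202 and 219 in the double knockdown (log2 fold change 0.63 ± 0.05, adjusted p = 2.81e-12). The cationic amino acid transporter SLC7A1 had log2 fold changes of -0.49 and 0.39 in the ACHN and HK-2 double knockdowns.

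The 3 tRNA synthetases among the members, AARS1, WARS1 and GARS1, which load alanine, tryptophan and glycine, fell by 0.69, 0.36 and 0.49 in the ACHN double knockdown and had log2 fold changes of 0.89, 0.72 and 1.12 in that of HK-2, all called. GARS1 exons overlap an antisense transcript, GARS1-DT, with a mean count of 609.

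The sensors of the unfolded protein response rose in both lines. ERN1 (IRE1), the kinase and endonuclease that splices XBP1 mRNA, was at 9.36, 10.8 and 8.3 CPM in ACHN shNC, 8.44, 8.59 and 9.01 after shKDM5C, 9.1, 7.64 and 8.01 after shYY1 and 17.1, 17.6 and 14.9 in the double knockdown (log2 fold change 0.79 ± 0.11, adjusted p = 6.69e-06). In HK-2 it was at 8.74, 8.74 and 8.29, 12.1, 11.1 and 15.4, 7.52, 7.17 and 8.26 and 19.7, 26.6 and 20.96 (log2 fold change 1.39 ± 0.13, adjusted p = 8.55e-11). EIF2AK3 (PERK) and ATF6 had log2 fold changes of 0.25 and 0.35 in ACHN and 0.54 and 0.59 in HK-2, all called.

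XBP1, the factor made from the spliced mRNA, moved with its sensor ERN1 in the HK-2 double knockdown and against it in that of ACHN. It was at 59.4, 63.8 and 59.2 CPM in ACHN shNC, 86.8, 82.96 and 83.3 after shKDM5C, 53.7, 61.9 and 60.02 after shYY1 and 46.1, 46.9 and 47.3 in the double knockdown (log2 fold change -0.38 ± 0.06, adjusted p = 1.05e-05). HK-2 held 111, 109 and 102, 123, 122 and 112, 109, 108 and 117 and 209, 187 and 199 (log2 fold change 0.90 ± 0.05, adjusted p = 1.41e-15). Its total mRNA thus moved with the amino acid genes, lower in ACHN and higher in HK-2, and spliced XBP1 cannot be read from gene counts.

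ER chaperones moved less than the amino acid genes, with 5 of 9 lower and 2 higher in the ACHN double knockdown (median -0.15) and 7 of 9 higher in that of HK-2 (median 0.26). HSPA5 (BiP), the main ER chaperone and master restraint of the sensors, was at 901, 875 and 905 CPM in ACHN shNC, 948, 939 and 921 after shKDM5C, 905, 887 and 912 after shYY1 and 806, 829 and 789.8 in the double knockdown (log2 fold change -0.15 ± 0.04, adjusted p = 0.00343). In HK-2 it was at 895, 894 and 887, 828, 919 and 925, 998, 992 and 1004 and 1212, 1190.3 and 1309 (log2 fold change 0.48 ± 0.04, adjusted p = 4.02e-12). Both changes were small against those of ASNS or SLC7A5 but larger than the spread of the libraries, and neither double knockdown overlapped shNC.

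DNAJB9 (ERdj4), a co-chaperone of HSPA5, was the chaperone gene that rose most in both lines. It went from 13.1, 11.2 and 14.1 CPM in ACHN shNC to 18.5, 15.8 and 15.7 after shKDM5C, 22.4, 20.2 and 22.5 after shYY1 and 30.1, 31.6 and 28.4 in the double knockdown (log2 fold change 1.22 ± 0.09, adjusted p = 1.25e-09). HK-2 held 12.1, 11.9 and 10.6 in shNC, 16.8, 15.8 and 15.7 after shKDM5C, 11.5, 13.4 and 12.9 after shYY1 and 33.4, 31.5 and 30.3 in the double knockdown (log2 fold change 1.47 ± 0.10, adjusted p = 1.75e-13). The line difference was -0.23 ± 0.14 (adjusted p = 0.185). Its exons overlap PNPLA8 and THAP5 on the opposite strand.

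MANF, a secreted ER stress factor, fell only in the ACHN double knockdown among the called changes, to 19.4, 18 and 20.01 CPM from 41.6, 38.6 and 43.8 in shNC, 41.2, 47.6 and 39.7 after shKDM5C and 41.8, 38.7 and 44.1 after shYY1 (log2 fold change -1.11 ± 0.08, adjusted p = 3.06e-10). In HK-2 it was at 34.5, 35.6 and 40.97 in shNC, 18.2, 36.7 and 34.5 after shKDM5C, 46.6, 36.6 and 40.1 after shYY1 and 38.98, 37.5 and 45.1 in the double knockdown, which overlapped (log2 fold change 0.14 ± 0.08, adjusted p = 0.172), and the line difference was -1.23 ± 0.12 (adjusted p = 8.04e-10). The calreticulin gene CALR and the ER form of HSP90, HSP90B1, fell by 0.31 and 0.30 in ACHN and had log2 fold changes of 0.20 and 0.24 in HK-2, while DNAJC3 (P58IPK) rose in both, with 0.39 and 0.63. SDF2L1 and the disulfide isomerase PDIA4 had -0.41 and -0.09 in ACHN, of which the first was called, and 0.26 and 0.30 in HK-2, both called. The SDF2L1 call was lost in ACHN without shNC replicate 1 or 3 or double knockdown replicate 2 (at -0.21 without the last). In HK-2 it was lost without shNC replicate 2 or double knockdown replicate 1 or 3, and with all 4 groups in the fit (0.19 to 0.25). CRELD2 passed in neither (-0.12 and 0.12).

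Of the 3 degradation genes, HERPUD1, a stress-induced part of the ubiquitin ligase complex at the ER, was the one member lower in both double knockdowns. It was at 93.4, 102 and 93.4 CPM in ACHN shNC, 101, 99.3 and 95.2 after shKDM5C, 82.7, 82.8 and 78.8 after shYY1 and 76.9, 78.5 and 70.6 in the double knockdown (log2 fold change -0.36 ± 0.06, adjusted p = 1.69e-05). The HK-2 levels were 108, 98.7 and 94.4, 60.6, 79.97 and 77.01, 67.2, 72.2 and 68.7 and 75.3, 68.5 and 73.2 (log2 fold change -0.47 ± 0.06, adjusted p = 8.45e-08 for the double knockdown, log2 fold change -0.53 ± 0.06, adjusted p = 8.8e-07 for shYY1), and the shYY1 and double knockdown libraries overlapped. SEL1L, a subunit of the same complex, and EDEM1, which recognises glycans of misfolded proteins, rose in both lines, with log2 fold changes of 0.29 and 0.33 in ACHN and 0.35 and 0.84 in HK-2. HERPUD1, whose promoter stretch is shown above, also holds a CARE.

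In ACHN, shKDM5C raised 24 members and lowered 5 (PHGDH, SLC7A5, SLC3A2, AARS1 and SEL1L), with a median log2 fold change of 0.23, against 28.9% and 27.7% of 16184 genes called higher and lower. ATF5, NUPR1 and SLC7A5 changed most (1.43, 0.94 and -0.60). After shYY1, 15 rose and 9 fell, with a median of 0.03, against 24.2% and 24.5% of 16370 genes, and NUPR1, DNAJB9 and SLC7A5 changed most (1.05, 0.74 and 0.71). No member reached the study's fold threshold in a single knockdown of either line, against 3.34% (shKDM5C) and 3.13% (shYY1) of all genes in ACHN and 0.501% and 1.29% in HK-2.

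In HK-2, shYY1 raised 13 members and lowered 5 (median 0.15), against 14.3% and 14.7% of 16071 genes. HERPUD1, CHAC1 and ATF4 changed most (-0.53, 0.44 and 0.41). With total counts as the scaling the split was 11 to 7, against 1886 of the 16071 genes higher and 2829 lower. With all 4 HK-2 groups in 1 fit 2 members passed, against 5.42% of 17093 genes. After shKDM5C no member passed edgeR's test, against 1.32% of 16161 genes, and DESeq2 called 1 member, against 4.99%. At an unadjusted p under 0.05 in edgeR's test there were 5 members, and the share of all genes at that threshold was not computed. Without replicate 1, the library that stood apart, 16 passed, 9 higher and 7 lower, against 11.5% and 10.9% of 16642 genes; the largest were NUPR1 (1.29), ATF3 (-0.71) and ERN1 (0.62). ASNS and ATF4 were at -0.28 and -0.03 in that fit (adjusted p = 0.0218 and 0.736).

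Between the lines, the shYY1 effect differed for 20 members, 10 higher and 10 lower in ACHN, against 16.6% and 16.5% of 18010 genes. SLC7A5 rose in both lines and by more in ACHN (difference 0.33 ± 0.05). SLC3A2 rose in ACHN and did not pass in HK-2 (0.54 and 0.06, difference 0.49 ± 0.06), and TRIB3 and PHGDH, lower in ACHN and higher in HK-2, differed by -0.82 ± 0.08 and -0.76 ± 0.07 (adjusted p = 7.42e-09 and 3.36e-10). The shKDM5C effect differed for 6 members, 5 higher and 1 lower in ACHN, against 5.74% and 6.18% of 17948 genes, and for 23 without HK-2 shKDM5C replicate 1, 18 higher and 5 lower, against 18.6% and 15.4% of 18527 genes. ATF5 had the largest of these differences (1.76 ± 0.23, and 1.57 without that library).

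Whether the double knockdown equalled the sum of the single changes was tested by the interaction of the hairpins over the 12 libraries of a line, given as the double change minus that sum on the log2 scale. In ACHN it was below 0 for 26 members and above 0 for 5 (median -0.52), against 28.8% and 26.8% of 17228 genes. NUPR1 (-2.33 ± 0.10), SLC7A5 (-1.96 ± 0.04) and SLC3A2 (-1.5 ± 0.05) were furthest below the sum and CEBPB (1.49 ± 0.17) and ERN1 (1.13 ± 0.16) furthest above it. All 6 synthesis enzymes, all 3 transporters and all 3 synthetases were below it. TRIB3 (0.03 ± 0.10), DDIT3 (-0.03 ± 0.14) and CHAC1 (-0.14 ± 0.25) did not pass. The targets themselves departed from the sum in ACHN, KDM5C by -0.42 ± 0.07 and YY1 by 0.28 ± 0.07, both called. In HK-2 neither was called (-0.10 and 0.03). KDM5C mRNA was also higher after shYY1 alone, by 0.34 in ACHN and 0.35 in HK-2, both called. The part of these differences in the member interactions was not tested.

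In HK-2 the interaction was above 0 for 15 members and below 0 for none (median 0.54), against 5.21% and 4.4% of 17093 genes. Unadjusted, 23 members had a p under 0.05, and the share of all genes at that threshold was not computed. DDIT3 (2.39 ± 0.35), ATF3 (2.01 ± 0.24), CHAC1 (1.92 ± 0.34), TRIB3 (1.77 ± 0.20) and ASNS (1.67 ± 0.13) were among those above the sum. Without HK-2 shKDM5C replicate 1, 30 members were above it and 1, ATF5 (-0.69), below it, against 15.0% and 13.7% of 17642 genes. In that fit DDIT3, TRIB3 and ASNS were at 2.09, 1.61 and 1.70, and ATF4, not called with all 12 libraries (0.52 ± 0.25, adjusted p = 0.232), passed at 0.28 (adjusted p = 0.00115). For 20 members all 3 ACHN double knockdown libraries lay below the other 9 and for 6 above them (20.7% and 20.0% of 15342 genes). In HK-2, 28 lay above and 1, ATF5, below (12.5% and 10.2% of 15332 genes).

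**Figure D4:**
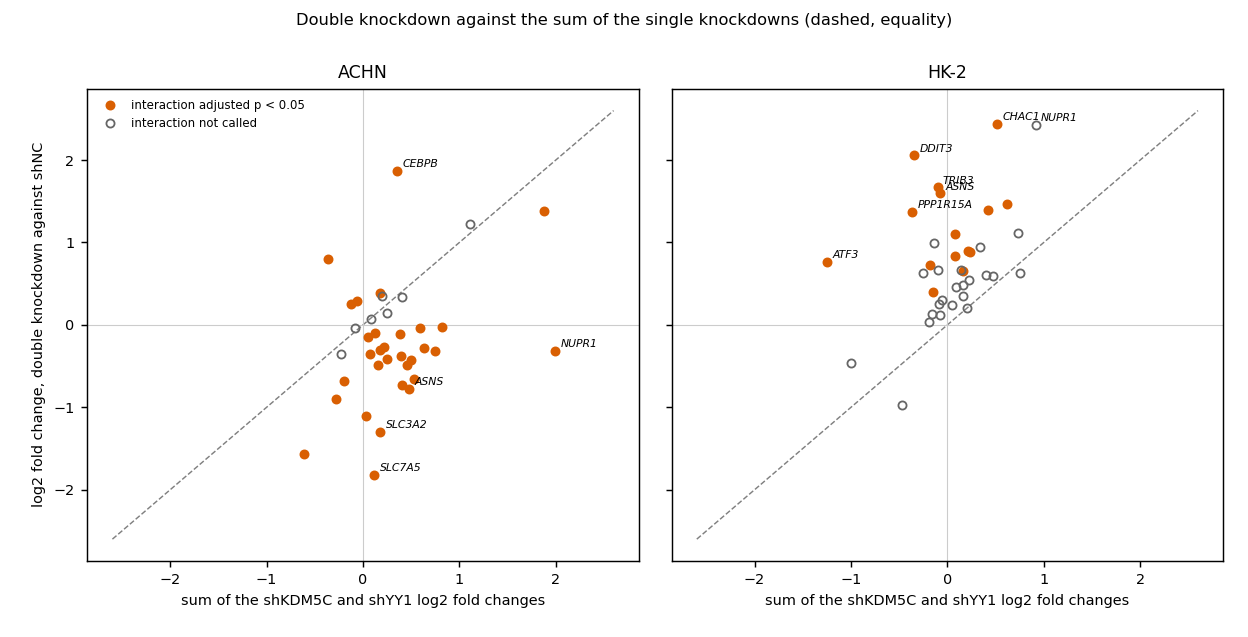
Log2 fold change of each member in the double knockdown (vertical) against the sum of its shKDM5C and shYY1 log2 fold changes (horizontal) in ACHN and HK-2, filled where the interaction has an adjusted p under 0.05. Most ACHN points lie under the dashed line of equality (26 called below it) and the called HK-2 points, 15 in all, lie above it.

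The lines also differed before any knockdown, and the line and any difference in handling cannot be told apart. Between the shNC groups 27 members differed, against 76.6% of all genes. Of these, 17 were higher in ACHN and 10 in HK-2, against 38.6% and 38% of 16988 genes. NUPR1 (5.85), SLC7A5 (3.61), SLC3A2 (1.69) and PSAT1 (1.60) were the furthest towards ACHN, and CEBPB (-1.87) and TRIB3 (-1.47) towards HK-2. Per kilobase of gene length, the levels in ACHN shNC ran from 0.874 ± 0.117 CPM per kb for ERN1 to 401 ± 8.37 for SLC7A5 and 393 ± 4.56 for CALR (mean ± SD, n = 3), and in HK-2 shNC from 0.211 ± 0.0167 for NUPR1 to 418 ± 16.6 for CALR. On that scale ATF4 was at 118 ± 1.61 and 114 ± 4.0, and DDIT3 at 8.93 ± 0.474 and 11.1 ± 0.794, in ACHN and HK-2.

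Other genes of the pathway, from lists outside the 38, were set beside the members. Over all genes tested, 30.7% were called higher and 32.0% lower in the ACHN double knockdown, and 25.5% and 24.3% in that of HK-2. Of 22 further ATF4 targets, 21 were tested (FGF21 was not); 7 rose and 11 fell in the ACHN double knockdown (median -0.44), and 16 rose and 2 fell in that of HK-2 (median 0.59). GDF15, SESN2 and STC2 had the largest ACHN changes, all called. GDF15, a secreted stress cytokine, was at 2.75 ± 0.07 in ACHN and 2.23 ± 0.06 in HK-2. SESN2, a leucine sensor, was at 1.94 ± 0.06 and 2.06 ± 0.06. STC2, a secreted glycoprotein, was at -1.68 ± 0.06 and 0.75 ± 0.06. GDF15 and SESN2, unlike ASNS or SLC7A5, thus rose in both lines.

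The remaining tRNA synthetases of the cytosol were listed by whether they are reported as ATF4 targets. Of 9 that are, 8 rose and none fell in the HK-2 double knockdown (median 0.55) and 1 rose and 5 fell in that of ACHN (median -0.10), with IARS1 at -0.37 in ACHN and 0.55 in HK-2 and YARS1 at -0.33 and 0.82. Of 8 that are not, none rose and 5 fell in HK-2 (median -0.19) and none rose and 3 fell in ACHN (median -0.08), with RARS1 at -0.27 and -0.30. The test of the line difference was called for all 9 of the former, each lower in ACHN, and for 2 of the latter, both higher in ACHN. Over all 18087 genes tested, 22.7% were called lower and 23.3% higher in ACHN.

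The 13 genes of eIF2 phosphorylation and exchange held 4 higher and 4 lower in each double knockdown, with medians of -0.07 in ACHN and 0.01 in HK-2. EIF2AK4, the amino acid sensing kinase GCN2, rose in both (0.48 and 0.38) and EIF2AK1, the kinase HRI, fell in both (-0.62 and -0.31). Of 32 other ER folding, export and degradation genes, 17 of 31 tested rose and 7 fell in ACHN (median 0.15), and 13 rose and 9 fell in HK-2 (median 0.08). The 9 mitochondrial stress genes held 2 higher and 3 lower in ACHN and 2 higher and 4 lower in HK-2. In ACHN the called shares of the eIF2 and mitochondrial lists, 61.5% and 55.6%, did not exceed the 62.6% of all genes. In HK-2 these shares were 61.5% and 66.7%, against 49.8% of all genes. The 7 cytosolic heat shock genes, which answer to another factor, all fell in the HK-2 double knockdown (median -0.68), with HSP90AA1 at -1.51, and 4 rose and 2 fell in that of ACHN (median 0.32). HSPA1A and HSPA1B, at -1.03 and -0.68 in HK-2, are near-identical genes whose reads may be split uncertainly.

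**Figure D5:**
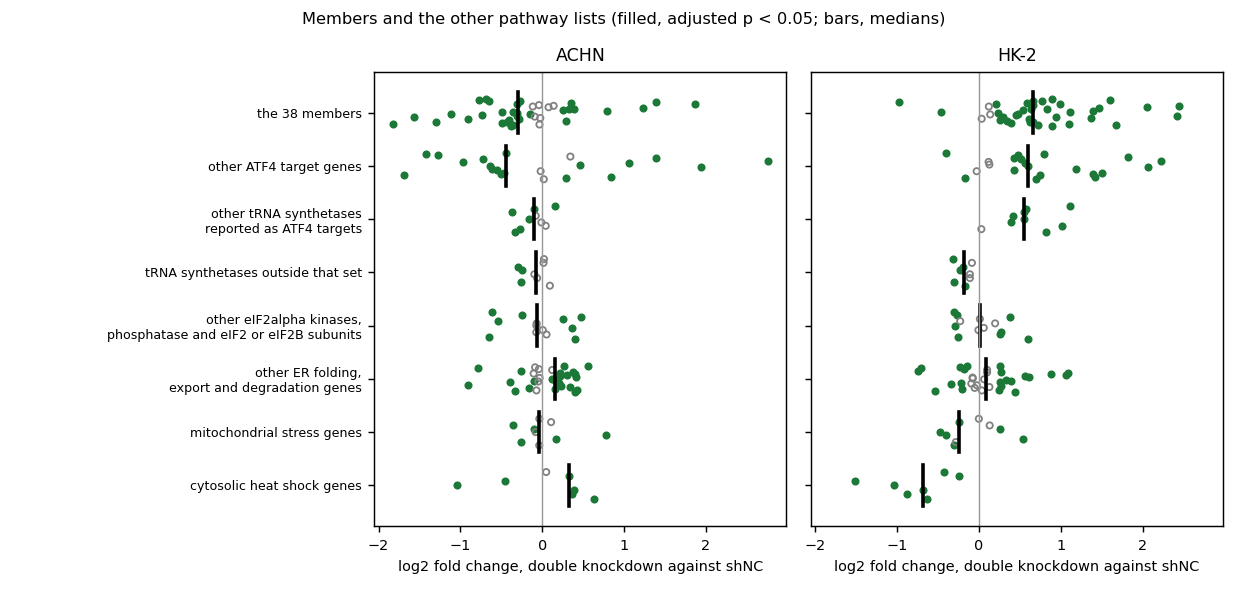
Log2 fold change in the double knockdown against shNC for the 38 members and 7 other lists (rows) in ACHN and HK-2, 1 point per gene, filled where the adjusted p is under 0.05, with a bar at the median of each list. Medians lie below 0 in ACHN and above 0 in HK-2 for the members, other ATF4 targets and other tRNA synthetases reported as such targets. The eIF2 list has the same signs (-0.07 and 0.01), and the cytosolic heat shock genes the reverse.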

How the data were processed

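RNA-seq was run on 24 libraries in 8 groups of 3. The authors sequenced paired reads, aligned them with HISAT2 2.0.5 and deposited raw counts per gene, made with featureCounts (2.0.1 per the file headers, 1.5.0-p3 per the submitters' processing notes) on the Ensembl release 84 annotation of GRCh38, with no strand option in the header; a short read shared by overlapping genes can therefore be lost or misassigned. Groups came from the sample labels. For this work the deposited counts went into the quasi-likelihood F test of edgeR (version 4.0.16, R 4.3.3) after filterByExpr and TMM scaling, and p-values were adjusted over all genes tested by Benjamini and Hochberg, with a call at an adjusted p under 0.05, and a second rule that adds a log2 fold change of at least 1.5 in size. Each knockdown was compared with shNC of its line, and interaction terms tested the double knockdown and the cell lines. All 38 members passed the filter in all 12 comparisons. Levels are CPM with TMM factors over the 12 libraries of a line, per kilobase where genes are compared. Depths of 15926561 to 24272298 counts limit the precision of low genes such as NUPR1 in HK-2 and CHAC1. The fit was tested on simulated data with 200 changed genes.

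No pair of libraries agreed within sampling noise, so each counted as 1 replicate. Values in every library are given for ATF4, DDIT3, ASNS, TRIB3, HSPA5 and XBP1 and for the members with the largest called changes (8 in each double and 3 in each single knockdown of a line), and the others by fold changes and counts. The members and lists were chosen with earlier results of these data known. Alternatives were DESeq2 1.42.0, other scalings and filters, all 4 groups of a line in 1 fit, the replicate number as a block, and leaving out each library. Motif letters were searched in RefSeq promoters. Of the listed kidney epithelial markers, 1 is not reported here.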

Additional observations from a re-analysis of the deposited data

Results flagged for a closer look

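The effect of each knockdown differed between the cell lines by the interaction test of edgeR for part of the members. The difference was called for 6 members after shKDM5C, for 20 after shYY1 and for 33 in the double knockdown. The shares of all genes called were 11.9%, 33.1% and 46.0%. The shKDM5C count rests in part on HK-2 shKDM5C replicate 1, without which it was 23, against 33.9% of all genes.

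For the members given by library, the double knockdown effect in ACHN minus that in HK-2 on the log2 scale was -0.91 for ATF4, -1.96 for DDIT3, -1.68 for TRIB3, -2.28 for CHAC1, -1.38 for PPP1R15A and -2.72 for NUPR1. It was -2.35 for ASNS, -2.48 for PHGDH, -0.92 for PSAT1, -2.91 for SLC7A5 and -1.90 for SLC3A2. In the ER arm it was -0.61 for HSPA5, -1.26 for XBP1, -1.23 for MANF and -0.58 for ERN1, the last of which rose in both lines. It was above 0 for ATF5 (2.38) and CEBPB (0.90). All of these had an adjusted p under 0.05 over 12 libraries.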

How the results depend on the processing

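The opposite signs of the medians in the double knockdowns held under the alternatives run, at -0.30 to -0.22 in ACHN and 0.62 to 0.68 in HK-2. In ACHN 31 to 32 members were called (33.0% to 64.3% of all genes), and 30 to 31 with any library left out (56.1% to 61.4%). In HK-2 28 to 35 were called (22.9% to 52.2%), and 34 to 35 with any library left out (44.1% to 46.1%). The 28 and the 22.9% came with all 4 groups in the fit. The ACHN minus HK-2 difference of the double knockdown was called for 32 to 34 members (21.5% to 47.8% of all genes). With a library left out it was called for 31 to 35 (40.8% to 43.3%), and no result changed sign while called. Counts that rest on HK-2 shKDM5C replicate 1 moved, as did the shares of all genes called, given in brackets. After shKDM5C in HK-2, 0 members were called (1.32%), 1 by DESeq2 (4.99%) and 4 with all 4 groups in the fit (7.84%). With a library left out 0 to 16 were called (0.0% to 22.3%). The HK-2 interaction was called for 11 to 31 with a library left out (5.4% to 28.7%). The difference of the shKDM5C effect was called for 6 members (11.9%), 11 by DESeq2 (17.2%) and 3 to 23 with a library left out (6.81% to 33.9%). HK-2 shYY1 went from 18 members (29.1%) to 2 (5.42%) with all 4 groups in the fit, which then held that library. Replicate numbers did not pair the libraries: correlations of same-numbered deviations were -0.049 to 0.0522 in ACHN and -0.184 to 0.0759 in HK-2, and 7 and 4 of 18 were best with their own number. With the replicate number as a block, the difference of the shKDM5C effect was called for 3 members (5.33% of all genes), and no other member count moved by more than 1.5 times. SDF2L1 lost its call in the double knockdown under 3 of 13 alternatives in ACHN and 4 of 13 in HK-2. It was not the only member to do so in HK-2, where 26 were called higher with all 4 groups in the fit, against 33 in the main fit. EIF2AK3 lost its line difference under 8 of 18, and DNAJC3 gained one under 8 of 18.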
